A study of Mus musculus with 6 samples.

Results

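The interferon-stimulated genes described here are 41 genes, taken by symbol from a table of read counts that lists 44788 genes. They are named targets and effectors of interferon signalling, and each was taken by its symbol. The list was chosen with earlier results of these data known. The tissue was the endometrium of ICR mice, an outbred strain, collected on day 4 of pregnancy from animals with adenomyosis, the growth of uterine lining into the muscle wall beneath it. All of these mice, in both groups, had been fed tamoxifen (2.7 μmol/kg) as newborns, on days 2 to 5 after birth, to bring the condition about. After 75 days the agonist group received the gonadotropin-releasing hormone (GnRH) agonist given in the labels as Decapetyl, at 1.5 μg per 100 g of body weight a day into the abdomen from day 3 to day 9 of estrus, and the no-agonist group received the solvent alone. Mating followed 4 weeks later. Each group is represented by 3 RNA-seq libraries, numbered 1 to 3 here in the order of deposition, so that the numbers are names only. Neither group is free of tamoxifen, so the comparison is between 2 sets of tamoxifen-treated mice. Which mouse or litter gave which library is not stated in the labels, so p-values below measure the spread between these libraries, which may be technical.

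Interferons are secreted proteins that switch on an antiviral and immune programme in the cells they reach. Type I interferons signal through the receptor chains IFNAR1 and IFNAR2 to a complex that includes STAT2 and IRF9 and binds the interferon-stimulated response element (ISRE) in front of genes such as the Ifit, Oas and Mx families. Interferon gamma signals through IFNGR1 and IFNGR2 and acts through the gamma-activated site (GAS) in front of genes such as Irf1, the guanylate-binding proteins and the immunity-related GTPases. In the mouse uterus interferon epsilon is made by the epithelium itself, and uterine natural killer cells are a source of interferon gamma in early pregnancy.

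Letters of both kinds were looked for in promoters, and stretches of 7 promoters are printed because they hold the searched letters in front of the gene's start. Stretches come from RefSeq promoters (assembly GRCm38.p6), are given 5′ to 3′ on the gene's own strand, and end before the start site. Capitals mark matches to the ISRE-type letters, GAAA and GAAA with any 2 bases between them, or the GAS-type letters TTCNNNGAA, each searched on both strands. The first 4 belong to genes induced by type I interferon: Ifit1 at chr19:34640775-34640824 (plus strand), Ifit3 at chr19:34583363-34583426 (plus strand), Isg15 at chr4:156200857-156200906 (minus strand) and Oas3 at chr5:120777695-120777744 (minus strand). The last 3 belong to genes known as interferon gamma targets: Gbp7 at chr3:142530220-142530302, Igtp at chr11:58199501-58199550 and Irf1 at chr11:53769914-53769963, all on the plus strand.
Ifit1: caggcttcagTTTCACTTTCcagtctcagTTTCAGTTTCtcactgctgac
Ifit3: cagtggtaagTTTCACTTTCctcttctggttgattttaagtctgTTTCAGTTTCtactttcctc
Isg15: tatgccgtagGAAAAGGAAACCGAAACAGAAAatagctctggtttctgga
Oas3: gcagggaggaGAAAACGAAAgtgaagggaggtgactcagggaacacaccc
Gbp7: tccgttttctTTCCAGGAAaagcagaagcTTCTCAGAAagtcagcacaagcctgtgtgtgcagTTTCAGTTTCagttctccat
Igtp: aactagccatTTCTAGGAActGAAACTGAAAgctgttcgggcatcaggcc
Irf1: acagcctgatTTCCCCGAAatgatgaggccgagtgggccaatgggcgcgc

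In this set Ifit1, Ifit3 and Isg15 carried more than 1 ISRE-type match, Oas3 carried 1, Gbp7 and Igtp carried letters of both types, and Irf1 carried the GAS-type letters alone. RefSeq promoters, 250 bases before to 50 bases after a start, were found for 31 of the 41 genes. No entry was found for Dhx58, Ifi27l2a, Iigp1, Mx1, Mx2, Oas2, Parp14, Parp9, Rtp4 and Usp18. The ISRE-type letters were present in 17 of the 31 genes (54.8%), against 3.99% of the 27025 genes with a promoter in the table. The GAS-type letters were present in 8 of the 31 (25.8%), against 9.55% of all those genes. Among the type I targets 4 of 7 had the ISRE-type letters and 2 of 7 the GAS-type letters. Among the gamma-type targets the counts were 5 of 6 and 2 of 6. A match is a description of letters and was not measured as binding.

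The libraries held 11720958 to 14104266 counted reads each, and all 41 genes passed the filter on low counts, as did 16581 genes in all. Levels are CPM, counts scaled to a common library size, with TMM factors, which align libraries on the bulk of their genes, and 3 counts, the least taken as detected, correspond to 0.204 to 0.276 CPM. These limits cover counting error only. The labelled tissue was checked against marker genes. Epithelial keratin Krt8 was at 898 to 2954 CPM and stromal collagen Col3a1 at 1099.7 to 2367 CPM. The muscle actin Acta2 was at 1048 to 5805 CPM, so smooth muscle RNA was present in the scraped endometrium of all 6 libraries. Of 8 embryo and trophoblast markers 4 (Cdx2, Nanog, Pou5f1 and Prl3d1) had 0 reads. For the genes described here no-agonist library 3 stood apart, and agonist library 1 to a lesser degree. Values are listed in the order of libraries 1, 2 and 3 of each group.

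No interferon-stimulated gene passed the test between the groups, and libraries of the same group differed widely. Of the 41 genes, 10 had a positive and 31 a negative fitted log2 difference of agonist over no agonist, with a median of -0.35 beside 0.018 over all genes tested. In edgeR's quasi-likelihood test with Benjamini-Hochberg adjustment 0 of the 41 were below an adjusted p of 0.05, as were 0 (0%) of all 16581 genes, and the smallest adjusted p in the group was 0.415, for Oasl1. At an unadjusted p under 0.05, 0 of the 41 were higher with the agonist, against 4.17% of all genes, and 1 was lower, Oasl1, against 5.09% of all genes. Both counts are below the background share. DESeq2 called 390 genes (2.35%) and edgeR's likelihood ratio test 268 genes (1.62%) at an adjusted p under 0.05, with 0 of the 41 among either. limma-voom called 0 genes (0%), and without the filter on low counts edgeR called 36 (0.128%), with 0 of the 41. By unadjusted p, Mx1 joined Oasl1 on the lower side in DESeq2 (5.87% of all genes), in the likelihood ratio test (4.94%) and in limma-voom (5.25%). Without the filter, Oasl1, Mx1 and Trim25 were lower (4.08%). All 3 agonist libraries lay above all 3 no-agonist libraries for 0 of the 41 genes (6.94% of all genes) and below them for 1, Oasl1 (7.61% of all genes).

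**Figure D1:**
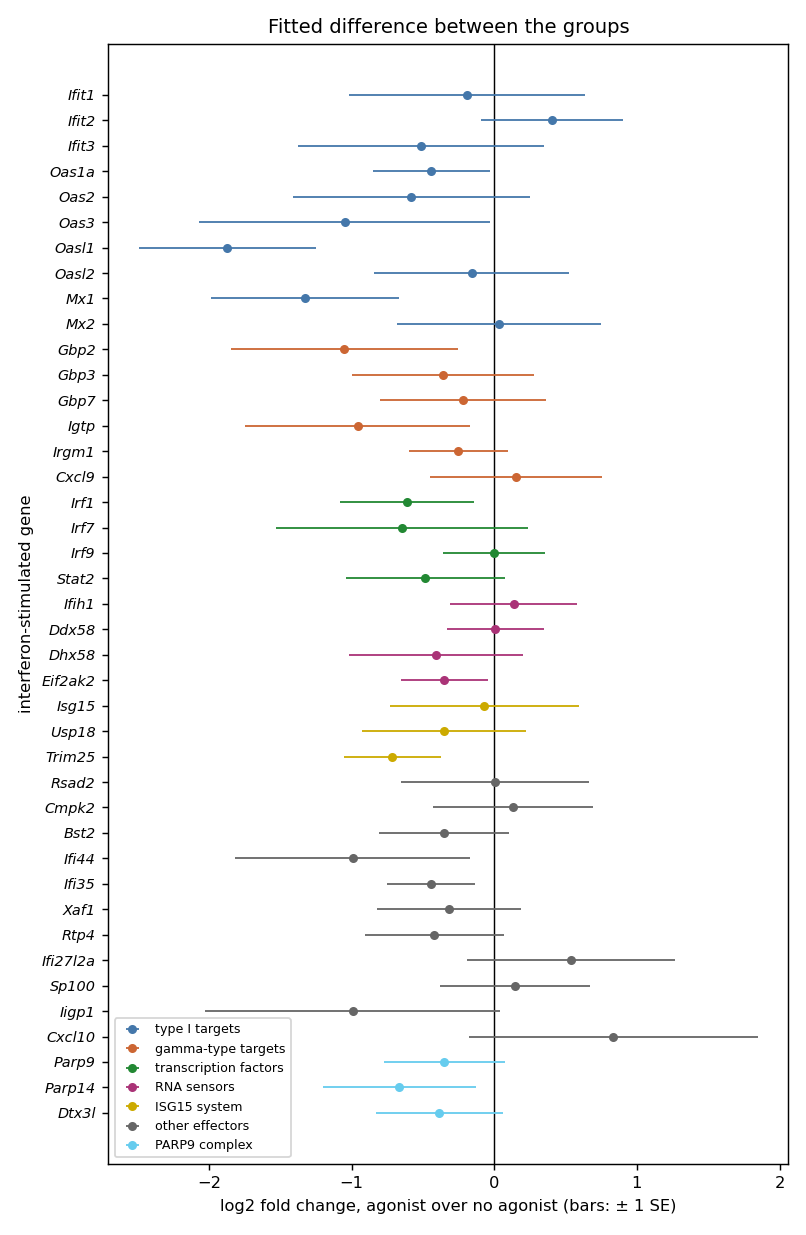
Fitted log2 fold change of each interferon-stimulated gene, agonist over no agonist (x axis), with bars of 1 standard error and genes coloured by role. Of the 41 points, 31 lie below 0, and Oasl1 lies farthest to the left at -1.87.

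The pattern shared by the genes ran across libraries. For 35 of the 41 genes the highest library was no-agonist 3 (85.4%, against 22.4% of all genes), and no-agonist library 3 and agonist library 1 were together the highest pair for 34 (82.9%, against 10.4%). The lowest level was in no-agonist library 2 for 18 genes, in agonist library 2 for 16, in agonist library 3 for 5 and in no-agonist library 1 for 2. Within the no-agonist group the highest library exceeded the lowest by a median of 4.16 times over the 41 genes, against 1.59 times over all genes. Within the agonist group the medians were 2.29 and 1.57 times. Both groups therefore held libraries with high and libraries with low interferon-stimulated transcripts. No-agonist library 3 stood at a median of 2.75 times the mean of the other no-agonist libraries, and agonist library 1 at 1.84 times the mean of the other agonist libraries. Over all genes these medians were 0.985 and 0.977. The mean level of the 41 genes, on a log2 scale centred on the 6 libraries, was -0.11, -0.82 and 1.26 without and 0.60, -0.66 and -0.27 with the agonist. The summed level of 8 smooth muscle markers, 8103, 7643 and 19462 CPM without and 11931, 2968 and 3625 CPM with the agonist, was highest in the same libraries. In bulk tissue fewer cells of a type and less RNA per cell cannot be told apart, and the part of smooth muscle in this pattern was not tested.

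**Figure D2:**
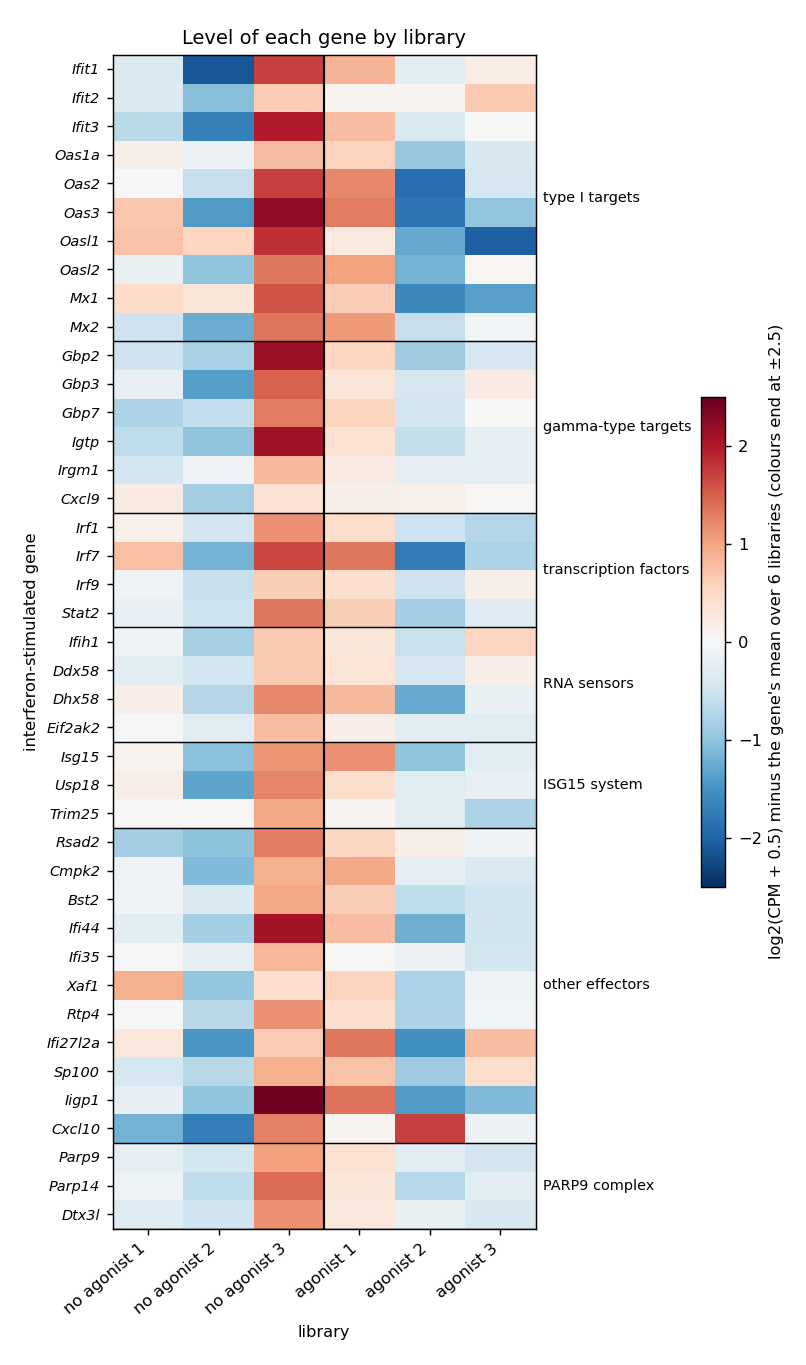
Heat map of log2(CPM + 0.5) of each interferon-stimulated gene (rows, by role) in each of the 6 libraries (columns), minus the gene's mean over the libraries; red is higher and blue lower. No-agonist library 3 is the reddest column, with the highest level of 35 of 41 genes, and agonist library 1 is red for most genes.

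Because 2 libraries stood apart, the comparison was also made without them. Without no-agonist library 3, 34 of the 41 genes had a positive and 7 a negative fitted difference, with a median of 0.42. Then 3 genes were higher at an unadjusted p under 0.05 (3.45% of all genes) and 0 were lower (3.58%). The 3 were Ifit3 (1.34 on the log2 scale, edgeR adjusted p = 0.647), Rsad2 (1.25, edgeR adjusted p = 0.614) and Cxcl10 (2.83, edgeR adjusted p = 0.607). The direction of the median for the whole gene group thus depended on 1 library. Without agonist library 1, 4 genes had a positive and 37 a negative difference, with a median of -0.72. Then 6 genes were lower at an unadjusted p under 0.05 (6.41% of all genes), namely Oas1a, Oas3, Oasl1, Mx1, Irf7 and Trim25, and 0 were higher (5.21%). Without both libraries, an alternative chosen after seeing the data, 21 genes had a positive and 20 a negative difference, with a median of 0.032. Higher at an unadjusted p under 0.05 were Rsad2 and Cxcl10 (4.44% of all genes), and lower were Oasl1 and Mx1 (5.02%). No gene of the 41 reached an adjusted p under 0.05 in edgeR in any of these fits.

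Interferons themselves were almost absent from the counts. Of 20 ligand genes looked up, including the alpha family, Ifnb1, Ifnk and the lambda genes, 18 had 0 reads in all 6 libraries, and Ifng had 9 reads in all. How reads that match more than 1 gene were handled is not given, so 0 reads need not mean that a transcript was absent. Ifne, interferon epsilon of the reproductive tract epithelium, was the one that could be tested, at 5.96, 2.52 and 7.81 CPM without and 3.69, 2.44 and 1.31 CPM with the agonist. Its agonist libraries overlapped the no-agonist libraries, and the fitted log2 difference was -1.13 ± 0.57 (edgeR adjusted p = 0.6). Of the receptor chains, Ifnar2 was at 44.7, 39.6 and 40.1 CPM without and 61.3, 65.1 and 54.4 CPM with the agonist, with every agonist library above every no-agonist library and a log2 difference of 0.54 ± 0.17 (edgeR adjusted p = 0.397). Its partner Ifnar1 was at 90.7, 89.0 and 70.6 CPM without and 80.7, 90.9 and 84.3 CPM with the agonist, with overlapping groups. For neither chain was no-agonist library 3 the highest. Ifngr2, of the gamma receptor, was at 131, 168 and 367 CPM without and 154, 108 and 75.5 CPM with the agonist, and no-agonist library 3 was the highest, as in the target genes. Ifngr1 was at 66.1, 48.9 and 57.9 CPM without and 56.6, 49.0 and 62.9 CPM with the agonist. The lambda receptor Ifnlr1 was at 50.04, 22.7 and 42.2 CPM without and 45.8, 21.4 and 25.9 CPM with the agonist, and its partner Il10rb was at 67.6, 63.0 and 65.5 CPM without and 57.9, 52.5 and 46.9 CPM with the agonist. Il10rb was lower in every agonist library than in every no-agonist library (log2 -0.32 ± 0.17, edgeR adjusted p = 0.623), and Ifngr1 and Ifnlr1 overlapped. Jak2, a kinase of the signalling relay, was at 149, 167 and 149 CPM without and 171, 212 and 289 CPM with the agonist, higher in every agonist library (log2 0.54 ± 0.24, edgeR adjusted p = 0.55). Of the 6 receptor genes 1 thus lay above and 1 below without overlap, and of 4 relay genes 1 lay above. Over all genes the shares were 6.94% above and 7.61% below.

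The 4 transcription factors among the genes all had negative fitted differences, with a median of -0.55, or 0.20 without no-agonist library 3 and -0.34 without both that library and agonist library 1. The edgeR adjusted p ran from 0.753 to 0.999. Irf1, the factor that carries the gamma response onward, had the smallest p of the 4 and lies at chr11:53770014-53778374 (GRCm38, plus strand). It was at 135, 90.8 and 277 CPM without and 169, 86.2 and 74.5 CPM with the agonist, a log2 difference of -0.61 ± 0.47. Agonist library 1 lay above no-agonist libraries 1 and 2, so the groups overlapped. Irf7, which amplifies type I interferon production, was at 178, 46.5 and 337 CPM without and 266, 31.2 and 61.6 CPM with the agonist (-0.65 ± 0.88). Its lowest library was agonist 2 and its highest no-agonist 3, and the groups overlapped. Reads of Irf7 and its opposite-strand neighbour Phrf1 may be mixed where they overlap. Stat2 was at 57.3, 45.1 and 164 CPM without and 102, 36.2 and 52.7 CPM with the agonist (-0.48 ± 0.56), and Irf9, its partner in the type I complex, was at 110.0, 78.6 and 179 CPM without and 155, 80.9 and 129.96 CPM with the agonist (-0.0044 ± 0.36). Both had their highest level in no-agonist library 3. Irf9 overlaps Rnf31 on the same strand, and reads in the overlap may have been left out or shared.

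The 10 type I targets had 2 positive and 8 negative fitted differences, with a median of -0.48. Without no-agonist library 3 the direction turned, with 7 positive, 3 negative and a median of 0.58. Oasl1 lies at chr5:114923240-114937915 (plus strand) and encodes an Oas-like protein known to hold back the translation of Irf7. It was at 76.2, 68.1 and 166 CPM without and 55.0, 18.9 and 11.003 CPM with the agonist. All 3 agonist libraries lay below all 3 no-agonist libraries, the only such case among the 41 genes. Its group means were 103 ± 54.3 CPM without and 28.3 ± 23.4 CPM with the agonist (SD, n = 3 libraries each). The log2 difference was -1.87 ± 0.62 (edgeR adjusted p = 0.415), which does not pass the test. Its unadjusted p was above 0.05 when either no-agonist library 3 or agonist library 2 was left out. Over all alternatives its log2 difference ran from -2.78 to -1.35, with adjusted p from 0.0558 to 0.777. Mx1, a nuclear GTPase that blocks influenza virus, lies at chr16:97447035-97462907 (minus strand) and was at 30.8, 27.3 and 67.1 CPM without and 34.7, 6.93 and 8.31 CPM with the agonist. Agonist libraries 2 and 3 were below every no-agonist library, and agonist library 1 was above no-agonist libraries 1 and 2. The log2 difference was -1.33 ± 0.66 (edgeR adjusted p = 0.597), and -1.92 without both libraries that stood apart. Mx2, the cytoplasmic relative, was at 9.43, 5.57 and 35.4 CPM without and 29.3, 9.10 and 13.2 CPM with the agonist (0.034 ± 0.72). Its highest libraries were no-agonist 3 and agonist 1, and the groups overlapped. The gene models class Mx2 as a polymorphic pseudogene, and which Mx alleles these outbred mice carried is not given.

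The oligoadenylate synthetases make the messenger that activates the antiviral RNase L. Oas2 was at 145, 98.3 and 482 CPM without and 337, 38.9 and 109 CPM with the agonist (-0.58 ± 0.83), Oas3 was at 32.1, 7.22 and 95.3 CPM without and 49.9, 5.37 and 9.85 CPM with the agonist (-1.05 ± 1.02), and Oas1a was at 63.8, 52.3 and 98.9 CPM without and 84.9, 29.8 and 43.6 CPM with the agonist (-0.44 ± 0.41). In all of these agonist library 2 was the lowest and no-agonist library 3 the highest. Oasl2, a relative of Oasl1 that lies beside it, was at 104, 58.8 and 298 CPM without and 238, 52.4 and 123 CPM with the agonist (-0.16 ± 0.69), with overlapping groups. The mean level of the 5 Oas and Oasl genes was 0.27, -0.52 and 1.58 without and 0.87, -1.43 and -0.77 with the agonist (log2, centred). Agonist libraries 2 and 3 were thus below all no-agonist libraries for the family mean, and agonist library 1 was second only to no-agonist library 3.

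The Ifit proteins bind foreign RNA and block its translation. Ifit1, at chr19:34640871-34650009 (plus strand), was at 18.5, 5.13 and 79.4 CPM without and 43.2, 19.8 and 27.2 CPM with the agonist (-0.19 ± 0.83). Ifit3 was at 13.1, 6.18 and 84.8 CPM without and 36.1, 16.0 and 20.8 CPM with the agonist (-0.51 ± 0.86), and Ifit2 was at 5.59, 3.22 and 11.7 CPM without and 7.62, 7.67 and 11.8 CPM with the agonist (0.40 ± 0.50). For all of these no-agonist library 2 was the lowest, and for Ifit1 and Ifit3 no-agonist library 3 was the highest. Without no-agonist library 3 the differences were 1.35 for Ifit1, 1.04 for Ifit2 and 1.34 for Ifit3, so the direction for Ifit1 and Ifit3 rested on that library. The promoters of Ifit1 and Ifit3 both hold repeated ISRE-type letters, as printed above. Ifit3 has a near-identical copy, Ifit3b, and reads may have been split between them. Across the 10 type I targets the edgeR adjusted p ran from 0.415 to 0.996.

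The 6 gamma-type targets had 1 positive and 5 negative fitted differences, with a median of -0.30, and 0.64 without no-agonist library 3. Gbp2, a guanylate-binding protein that attacks vacuoles holding microbes, had the smallest p of the 6 and lies at chr3:142620602-142638008 (plus strand). It was at 68.8, 56.0 and 436 CPM without and 144, 53.0 and 73.9 CPM with the agonist. No-agonist library 3 alone carried the high mean of its group, which was 187 ± 216 CPM (SD, n = 3), against 90.3 ± 47.6 CPM (SD, n = 3) with the agonist. The log2 difference was -1.05 ± 0.79 (edgeR adjusted p = 0.748), and 0.53 without that library. Igtp, an immunity-related GTPase, was at 39.8, 30.6 and 271 CPM without and 81.7, 41.3 and 52.6 CPM with the agonist (-0.96 ± 0.79), with the same single high library. Without it the difference was 0.74. Igtp overlaps Irgm2 on the same strand, and reads in the overlap may have been left out or shared. Gbp3 was at 34.3, 14.9 and 111 CPM without and 49.8, 29.7 and 45.6 CPM with the agonist (-0.36 ± 0.64), and Gbp7 was at 13.1, 14.7 and 56.4 CPM without and 33.5, 16.2 and 22.6 CPM with the agonist (-0.22 ± 0.58). Irgm1, a regulator of this GTPase family, was at 112, 148 and 277 CPM without and 181, 135 and 136 CPM with the agonist (-0.25 ± 0.34). All of these had their highest level in no-agonist library 3. Cxcl9, a chemokine that draws T cells, was at 1.13, 0.261 and 1.29 CPM without and 1.04, 1.02 and 0.923 CPM with the agonist, or 3 reads in its lowest library, so its difference (0.15 ± 0.60) rests on few reads. Across the 6 genes the edgeR adjusted p ran from 0.748 to 0.97.

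Type I and gamma-type targets were compared as mean levels within each library (log2, centred on the 6 libraries). The type I level was -0.0093, -0.86 and 1.53 without and 0.78, -0.997 and -0.44 with the agonist, and the gamma-type level was -0.39, -0.87 and 1.39 without and 0.37, -0.40 and -0.10 with the agonist. Both were highest in no-agonist library 3 and next highest in agonist library 1. The type I minus gamma-type level was 0.38, 0.013 and 0.14 without and 0.41, -0.60 and -0.34 with the agonist. Agonist libraries 2 and 3 were below every no-agonist library on this measure, while agonist library 1 was the highest of all 6. The group means were 0.18 without and -0.18 with the agonist, a difference of -0.35. The groups overlapped through agonist library 1, and no test was made on this score. Without no-agonist library 3 the difference was -0.37, without agonist library 1 it was -0.64, without agonist library 2 it was -0.14, and without both it was -0.66. The fitted medians depended on the libraries kept. Without no-agonist library 3 the median difference was 0.58 for the type I targets (7 positive, 3 negative) and 0.64 for the gamma-type targets (6 positive, 0 negative), so that both were positive and close. Without agonist library 1 the medians were -0.93 and -0.51, both negative. Without both libraries the median of the type I targets was -0.27 (5 positive, 5 negative) and that of the gamma-type targets 0.44 (6 positive, 0 negative). Outside the list of 6, Irf1 (-0.49) and the GTPase Iigp1 (-0.69) were negative in that fit, and the chemokine Cxcl10 (3.11) was positive. There the Ifit genes were all positive, while the other families held both signs: Oasl1, Mx1, Oas3, Oas1a and Oas2 were negative, and Oasl2 and Mx2 positive.

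**Figure D3:**
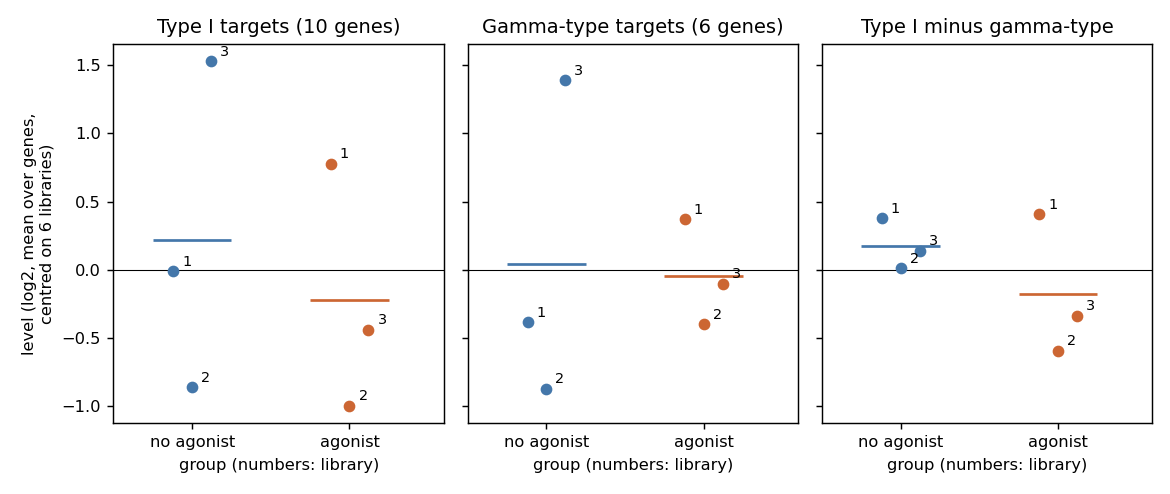
Mean level per library (log2, centred on 6 libraries) of the 10 type I targets, the 6 gamma-type targets and their difference; points are libraries, labelled by number, and lines are group means. In the first and second panels no-agonist library 3 is highest, at 1.53 and 1.39, and in the third panel agonist library 1 lies at 0.41 and the other agonist libraries below 0.

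The 4 RNA sensors had 2 positive and 2 negative fitted differences. Eif2ak2, the kinase PKR that stops translation on meeting viral RNA, had the smallest p, and was at 54.9, 46.9 and 97.4 CPM without and 63.7, 46.8 and 45.9 CPM with the agonist (-0.35 ± 0.30, edgeR adjusted p = 0.788). Its groups overlapped, with no-agonist library 3 highest. Ddx58, which encodes RIG-I, was at 49.3, 42.5 and 92.9 CPM without and 75.3, 43.9 and 66.5 CPM with the agonist (0.0084 ± 0.34). Ifih1, which encodes MDA5, was at 15.6, 9.22 and 26.8 CPM without and 20.9, 11.3 and 24.6 CPM with the agonist (0.14 ± 0.45). Dhx58, which encodes their regulator LGP2, was at 38.9, 20.4 and 80.1 CPM without and 60.6, 14.2 and 30.3 CPM with the agonist (-0.41 ± 0.61). The median of the 4 was -0.17, and 0.34 without no-agonist library 3. A list of 13 further genes of nucleic acid sensing that are not among the 41 was looked up, with 4 positive and 9 negative differences. Of these, 4 were lower at an unadjusted p under 0.05 (5.09% of all genes) and 0 were higher. Tmem173, which encodes the DNA-pathway adaptor STING, was at 259.6, 350.4 and 297 CPM without and 141, 155 and 83.3 CPM with the agonist (-1.26 ± 0.28, edgeR adjusted p = 0.265). Aim2, a sensor of cytoplasmic DNA, was at 20.5, 8.27 and 5.14 CPM without and 3.21, 4.21 and 2.39 CPM with the agonist (-1.79 ± 0.56). The Toll-like receptor adaptor genes Myd88 (-0.43 ± 0.16) and Ticam1 (-0.58 ± 0.22) were the others. In all 4 every agonist library lay below every no-agonist library, against 7.61% of all genes. The 4 had been picked by their p, which favours such separation. Unlike most of the 41 genes they were not set apart by no-agonist library 3. Without that library the differences were -1.26 for Tmem173, -2.13 for Aim2, -0.37 for Myd88 and -0.56 for Ticam1. Of these, Tmem173 passed an adjusted p of 0.05 in DESeq2 (adjusted p = 0.00512) and passed it in edgeR's likelihood ratio test, and did not in the quasi-likelihood test.

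The ISG15 system couples a ubiquitin-like protein to others in interferon-treated cells. Isg15, the modifier, was at 33.9, 15.1 and 68.8 CPM without and 70.4, 15.5 and 26.3 CPM with the agonist (-0.07 ± 0.66). Its highest library was agonist 1, with no-agonist 3 next, and its promoter held 3 overlapping ISRE-type matches. Usp18, which removes the modifier and dampens the type I receptor, was at 25.5, 8.70 and 53.4 CPM without and 30.7, 18.3 and 19.5 CPM with the agonist (-0.35 ± 0.57). Trim25, a ligase that helps activate RIG-I, lies at chr11:88999376-89020293 (plus strand) and was at 247, 245 and 473 CPM without and 253, 195 and 141 CPM with the agonist. For Trim25 agonist libraries 2 and 3 lay below all no-agonist libraries and agonist library 1 was just above no-agonist libraries 1 and 2. Its difference was -0.71 ± 0.34 (edgeR adjusted p = 0.578), and -0.32 without no-agonist library 3. The median of the 3 genes was -0.35, and 0.42 without that library.

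The 11 other effectors had 5 positive and 6 negative fitted differences, with a median of -0.32, and 0.75 without no-agonist library 3. Ifi35 had the smallest p of these, and was at 89.7, 78.0 and 163 CPM without and 93.9, 82.7 and 66.5 CPM with the agonist (-0.44 ± 0.31, edgeR adjusted p = 0.728). Bst2, which encodes the tether that holds budding viruses to the cell, was at 209, 174 and 437 CPM without and 341, 144 and 159 CPM with the agonist (-0.35 ± 0.46). The groups overlapped for both, and no-agonist library 3 was the highest. Rsad2, which encodes the antiviral enzyme viperin, was at 4.15, 3.65 and 20.0 CPM without and 11.6, 8.83 and 7.46 CPM with the agonist (0.0037 ± 0.66). Its neighbour Cmpk2, a mitochondrial nucleotide kinase, was at 17.1, 8.44 and 35.1 CPM without and 36.3, 15.9 and 14.2 CPM with the agonist (0.13 ± 0.56). Without no-agonist library 3 the differences were 1.25 for Rsad2 and 0.79 for Cmpk2. Rsad2 was thus lower in no-agonist libraries 1 and 2 than in any agonist library, and highest in no-agonist library 3. Iigp1, an immunity-related GTPase like Igtp, was at 31.4, 18.1 and 199.7 CPM without and 94.9, 13.5 and 16.9 CPM with the agonist (-0.99 ± 1.03). Ifi44 was at 20.8, 13.7 and 108 CPM without and 43.2, 10.46 and 17.8 CPM with the agonist (-0.99 ± 0.82). Both were highest in no-agonist library 3. Ifi27l2a was at 76.2, 22.4 and 97.4 CPM without and 156, 21.3 and 107 CPM with the agonist (0.54 ± 0.73). Its level was low in library 2 of each group. Sp100, a component of nuclear bodies, was at 57.5, 47.8 and 144 CPM without and 129, 41.0 and 106 CPM with the agonist (0.15 ± 0.53), and Rtp4, a chaperone of membrane receptors, was at 74.6, 46.6 and 167 CPM without and 100.2, 43.7 and 71.2 CPM with the agonist (-0.42 ± 0.49). Rtp4 overlaps Masp1 on the opposite strand. Xaf1, which promotes cell death, was at 59.5, 16.2 and 43.4 CPM without and 47.7, 18.5 and 29.5 CPM with the agonist (-0.32 ± 0.50), and was the one gene with its highest level in no-agonist library 1. Cxcl10, a chemokine that draws T cells, was at 0.981, 0.522 and 7.62 CPM without and 3.05, 10.6 and 2.54 CPM with the agonist (0.84 ± 1.01). It was the one gene highest in agonist library 2, and without no-agonist library 3 its difference was 2.83. It overlaps Art3 on the opposite strand, which had 578 reads in all beside 329 for Cxcl10. Across the 11 genes the edgeR adjusted p ran from 0.728 to 1.

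The PARP9 complex joins an ADP-ribosylation factor to the ubiquitin ligase Dtx3l, and the genes lie together on chromosome 16. Parp14, a relative that modifies proteins with ADP-ribose, had the smallest p of these 3 and lies at chr16:35832874-35871544 (minus strand). It was at 92.1, 64.1 and 270.1 CPM without and 124, 60.9 and 83.9 CPM with the agonist (-0.66 ± 0.54, edgeR adjusted p = 0.763). Its groups overlapped, and no-agonist library 3 was the highest. Parp9 was at 67.6, 57.8 and 163 CPM without and 103, 65.0 and 57.9 CPM with the agonist (-0.35 ± 0.43), and Dtx3l was at 39.7, 35.1 and 109.7 CPM without and 59.7, 43.9 and 37.6 CPM with the agonist (-0.38 ± 0.44). These genes overlap at their ends on opposite strands, and their reads there cannot be told apart. The median of the 3 was -0.38, and 0.27 without no-agonist library 3.

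Genes of the same pathway outside the 41 were taken from lists of further targets. Of 19 tested further type I targets (of 21), 4 had positive and 15 negative differences with a median of -0.35, and 0 were below an unadjusted p of 0.05 in either direction. No-agonist library 3 was highest for 14 of the 19. Samd9l, an antiviral factor, had the smallest p and was at 70.4, 127 and 195 CPM without and 91.8, 49.6 and 71.6 CPM with the agonist (-0.88 ± 0.39). Of 19 tested further gamma-type targets (of 22), 2 had positive and 17 negative differences with a median of -0.45, and no-agonist library 3 was highest for all 19. Lower at an unadjusted p under 0.05 were 2 (5.09% of all genes), both guanylate-binding proteins. Gbp9 was at 27.5, 31.3 and 94.2 CPM without and 29.4, 16.2 and 9.93 CPM with the agonist (-1.46 ± 0.57) and Gbp4 was at 30.8, 36.6 and 78.6 CPM without and 33.4, 20.2 and 17.2 CPM with the agonist (-1.04 ± 0.41). In both, the groups overlapped and no-agonist library 3 was highest. Of 7 brakes on the pathway, which include Usp18, 2 had positive and 5 negative differences, with 0 below an unadjusted p of 0.05. Irf2 had the smallest p of these, and was at 38.5, 34.3 and 38.9 CPM without and 30.9, 31.6 and 29.1 CPM with the agonist (-0.29 ± 0.17, edgeR adjusted p = 0.671). It was the 1 of the 7 with every agonist library below every no-agonist library (7.61% of all genes). Next came Socs1, which inhibits the JAK kinases, at 3.70, 1.74 and 2.02 CPM without and 4.33, 4.96 and 2.85 CPM with the agonist (0.70 ± 0.45).

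Levels were compared between genes as mean CPM per kilobase of exon over the 6 libraries. Bst2 was the highest of the 41 at 270.1 and Ifi27l2a next at 173. A step down followed to Ifi35 at 55.4, Gbp2 at 55.1, Isg15 at 50.7, Oas2 at 45.3 and Trim25 at 45.0, which lay close together beside the spread of each gene between libraries. The lowest were Ifih1 at 2.21, Rsad2 at 2.14, Ifit2 at 2.02, Cxcl10 at 1.87 and Cxcl9 at 0.313 CPM per kilobase. Within the Ifit family the order was Ifit3 (16.9), Ifit1 (12.1) and Ifit2. Within the Oas and Oasl family it was Oas2, Oas1a (33.0), Oasl1 (25.3), Oasl2 (22.9) and Oas3 (4.71). That order holds for the mean over libraries, since Oas1a was above Oas2 in 3 of the 6 libraries and Oasl2 above Oasl1 in the 3 agonist libraries. Among the guanylate-binding proteins Gbp2 stood above Gbp3 (14.6) and Gbp7 (4.65). Mx1 (7.71) and Mx2 (4.70) differed by library, and Mx1 was above Mx2 in 4 of the 6 libraries.

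Several of the genes lie side by side, and their ratio within a library does not depend on how that library was scaled. Of 12 neighbouring pairs within 150 kilobases, 10 had ratios that overlapped between the groups and 2 did not. These 2 pairs were singled out after their values were seen. Single genes without overlap made up 6.94% (above) and 7.61% (below) of all genes tested. The share for ratios of neighbouring genes was not computed and may differ. Oasl1 had no overlap by itself, so its ratio is not a separate observation. The ratio of Oasl2 to Oasl1, in CPM per kilobase, was 0.561, 0.353 and 0.735 without and 1.77, 1.13 and 4.57 with the agonist. Oasl1 exceeded Oasl2 in every no-agonist library, and Oasl2 exceeded Oasl1 in every agonist library. The genes lie 11005 bases apart on the same strand. The ratio of Mx1 to Mx2, which lie 72400 bases apart on opposite strands, was 3.12, 4.68 and 1.81 without and 1.13, 0.727 and 0.603 with the agonist. All no-agonist libraries were above all agonist libraries. The ratio of Dtx3l to Parp9 was 0.4996, 0.516 and 0.573 without and 0.491, 0.574 and 0.553 with the agonist. Ifit3 over Ifit1 was 1.07, 1.83 and 1.62 without and 1.27, 1.23 and 1.16 with the agonist, with overlapping groups.

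**Figure D4:**
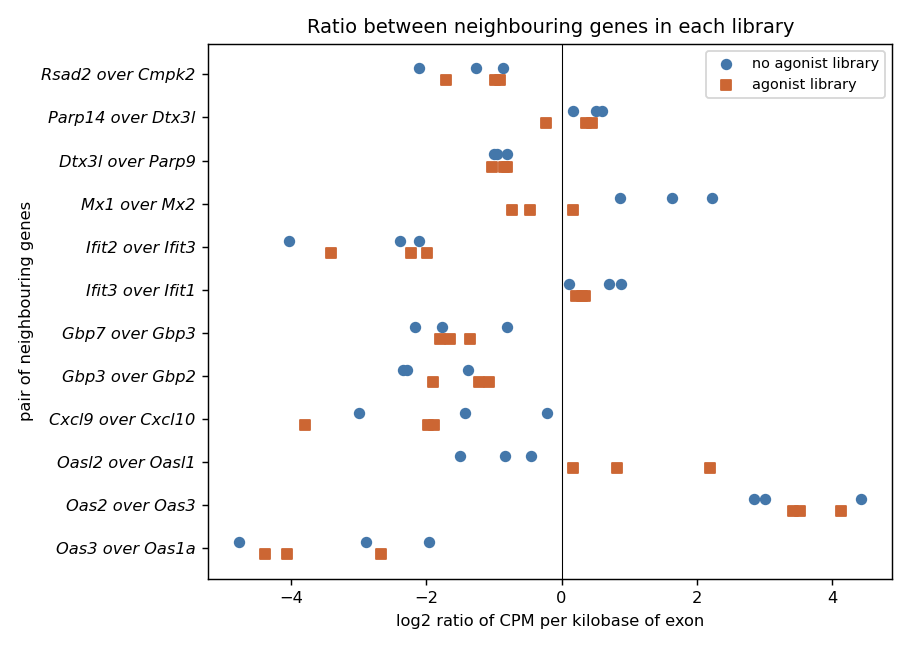
Log2 ratio of CPM per kilobase of exon (x axis) between neighbouring interferon-stimulated genes, with 1 point for each of the 3 no-agonist (circles) and 3 agonist (squares) libraries. The groups separate for Mx1 over Mx2 and for Oasl2 over Oasl1, and overlap for the other 10 pairs.

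Marker genes of other cell types were set beside the interferon-stimulated genes. All 8 smooth muscle markers were highest in no-agonist library 3 and next highest in agonist library 1. Their mean level (log2, centred) was 0.12, 0.04 and 1.54 without and 0.69, -1.16 and -1.23 with the agonist. The 3 libraries with the highest smooth muscle level were thus those with the highest level of the 41 genes, in the same order. The remaining libraries ran in the opposite order. No-agonist library 2, agonist library 2 and agonist library 3 were at -0.82, -0.66 and -0.27 for the 41 genes. For smooth muscle the same libraries were at 0.04, -1.16 and -1.23. Of 11 macrophage and dendritic cell markers all had reads in at least 1 library and the sum was 1358, 979 and 2600.2 CPM without and 787, 628 and 284 CPM with the agonist. Cd14 and Itgam made up most of that sum, which was lower in every agonist library. Of the 10 markers tested 4 had positive and 6 negative differences, and the mean level (log2, centred) overlapped, at 0.79, -0.95 and 0.62 without and 0.074, -0.081 and -0.45 with the agonist. Natural killer and T cell markers, 14 in all, summed to 18.3, 11.3 and 27.5 CPM without and 29.7, 43.5 and 58.7 CPM with the agonist. The natural killer and T cell sum was lower in every no-agonist library than in any agonist library. Of the 11 markers tested, 10 had a positive and 1 a negative difference. All agonist libraries lay above for 2 of the 11 (6.94% of all genes). By edgeR, 3 were higher at an unadjusted p under 0.05 (4.17% of all genes), and the smallest adjusted p was 0.443. The sum did not follow the 41 genes from library to library. The plasmacytoid dendritic cell marker Siglech was at 0.377, 0.348 and 1.29 CPM without and 0.562, 2.51 and 0.923 CPM with the agonist. Bst2, which is also one of the 41 genes, is counted in that list of 5 with Tcf4. Neutrophil markers, 7 in all, summed to 17.6, 3.83 and 13.5 CPM without and 16.4, 18.7 and 16.6 CPM with the agonist. B and plasma cell markers, 6 in all, summed to 30.5, 36.3 and 59.2 CPM without and 65.8, 211 and 96.03 CPM with the agonist. The plasmacytoid list, in which Bst2 and Tcf4 are the main genes, was highest by sum in no-agonist library 3 and next in agonist library 1, and the other immune lists were not. Bst2 had that order, while Tcf4 was lowest in no-agonist library 3, at 64.9 CPM. The mean level of the 3 plasmacytoid markers tested (log2, centred) was highest in agonist library 2, at 0.47, with agonist library 1 at -0.14. Epithelial markers, 9 in all, summed to 6446, 11458 and 8808 CPM without and 5443, 4983 and 3974 CPM with the agonist, lower in every agonist library. The 7 endothelial markers summed to 317, 235 and 290.0 CPM without and 502, 445 and 348 CPM with the agonist, and the 8 stromal markers to 6914, 4344 and 5084 CPM without and 4852, 5399 and 4218 CPM with the agonist. Mitochondrial reads made up 1.22, 2.39 and 2.92% of the no-agonist and 3.89, 2.63 and 2.27% of the agonist libraries, so the libraries that stood apart had the highest shares. Ribosomal 18S reads made up 0.363, 3.31 and 0.350% and 1.94, 0.254 and 0.369%, with the highest share in no-agonist library 2, which was lowest for 18 of the 41 genes. The other libraries did not follow that order. Agonist library 1 had the next highest 18S share and a high level of the 41 genes, at 0.60. Agonist library 2 had the lowest share and was lowest for 16 of the 41. The part of cell makeup and RNA composition in the pattern of the 41 genes was not tested.

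**Figure D5:**
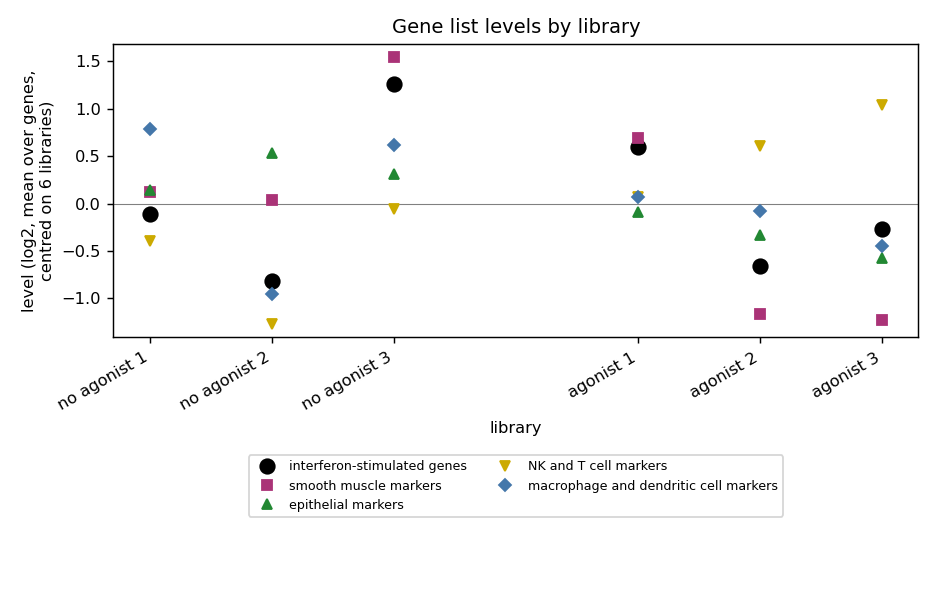
Mean level (log2, centred on 6 libraries) of the 41 interferon-stimulated genes and of 4 marker lists in each library. The interferon-stimulated genes (black) and the smooth muscle markers (squares) are both highest in no-agonist library 3, at 1.26 and 1.54, and next in agonist library 1, at 0.60 and 0.69. The lowest library differs: no-agonist 2 for the interferon-stimulated genes, at -0.82, and agonist 3 for smooth muscle, at -1.23.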

How the data were processed

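Read counts per gene, as deposited by the authors in 1 table for the 6 libraries, were the starting point. Per the labels' protocols, RNA had an integrity number above 8.0, the kit was Ion Total RNA-Seq, and reads were single-end from an Ion Proton instrument. Per the submitters' processing notes, counting used HTSeq 0.6.1 and the build mm10 (GRCm38). For the aligner, annotation, strand setting and filters: not given in the sources used here. Without a known strand setting, reads of overlapping genes on opposite strands cannot be told apart. Counts were fitted with edgeR 4.0.16 (R 4.3.3) by the quasi-likelihood test, with filterByExpr, TMM factors and Benjamini-Hochberg adjustment over all 16581 genes tested. No pair of replicate libraries agreed within sampling noise. A ± beside a log2 difference is its standard error. A count of 3 was taken as the detection floor. The pipeline was tested on simulated data. The 41 genes and the gene lists were chosen with earlier results of these data known. The rule asked for values of the genes with the smallest p in each role, at the ends of the range of levels or without overlap, and values are given for all 41. For other pathway genes, values are given for ligands, receptors and up to 3 genes per list with the smallest p. Some genes of those lists are not reported here. Ticam1 is named outside that rule, to complete a count of 4. Alternatives were other scaling, DESeq2 1.42.0, the likelihood ratio test, limma-voom (limma 3.58.1), other filters, and each library left out. Leaving out 2 libraries together was chosen after seeing the data. Gene positions are from GENCODE M21 on GRCm38 and promoters from RefSeq.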

Additional observations from a re-analysis of the deposited data

How the results depend on the processing

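No paired analysis was possible because the labels share no replicate numbers between the groups. With 3 libraries a group and a spread this wide, the differences of the 41 genes were mostly smaller than their standard errors. Depth limits Cxcl9 and Cxcl10, which had the fewest reads. The common direction rested on no-agonist library 3. In each alternative run, 0 of the 41 genes reached an adjusted p under 0.05, while Oasl1 kept a negative difference throughout. With library totals in place of TMM factors the median of all genes moved to 0.18 and that of the 41 genes to -0.18, which leaves their distance at -0.37, as before. Genes past an adjusted p of 0.05 numbered 390 with DESeq2, 268 with the likelihood ratio test, 36 with no filter and 0 to 1 when libraries were left out. Members of the group lower at an unadjusted p under 0.05 numbered 2 with DESeq2, 2 with the likelihood ratio test, 2 with limma-voom, 3 with no filter and 0 to 6 when libraries were left out, where 0 to 3 were higher. With libraries left out, genes with all agonist libraries above numbered 0 to 7 and below 1 to 7. The counts of 7 came above without no-agonist library 3 (11.9% of all genes), below without agonist library 1 (14.1%), and in each direction without both (20.8% above, 19.5% below). The median log2 difference then ran from -0.72 to 0.42 over the 41 genes, -0.93 to 0.58 over type I targets and -0.66 to 0.64 over gamma-type targets, and the type I minus gamma-type difference from -0.66 to -0.14. Log2 differences of single genes that changed sign were near 0 in most cases. They were, with DESeq2, Ddx58 -0.00345 and Rsad2 -0.00987. They were, with at least 10 counts in every library, Irf9 0.00128. They were, with library totals, Irf9 0.17, Isg15 0.0887 and Oasl2 0.0182. They were, with limma-voom, Gbp3 0.0898, Gbp7 0.0765, Ifit1 0.55, Ifit3 0.29 and Irf9 0.0284. They were, with no filter, Rsad2 -0.00111. They were, with relative log expression factors, Ddx58 -0.00341 and Rsad2 -0.00873. They were, with upper-quartile factors, Irf9 0.0441. They were, with 18S and mitochondrial genes left out, Irf9 0.0014. When libraries were left out, the following log2 differences crossed 0, given as lowest to highest. Bst2 -0.84 to 0.17, Cmpk2 -0.41 to 0.79, Cxcl10 -0.11 to 3.11, Cxcl9 -0.27 to 0.50, Ddx58 -0.20 to 0.43, Dhx58 -1.05 to 0.24 and Dtx3l -0.66 to 0.34. They included Eif2ak2 -0.54 to 0.0382, Gbp2 -1.55 to 0.53, Gbp3 -0.80 to 0.76, Gbp7 -0.56 to 0.80, Ifi27l2a -0.0175 to 1.01, Ifi44 -1.74 to 0.47 and Ifih1 -0.16 to 0.61. They included Ifit1 -0.70 to 1.35, Ifit3 -1.01 to 1.34, Igtp -1.40 to 0.74, Iigp1 -2.44 to 0.75, Irf7 -2.01 to 0.0891, Irf9 -0.24 to 0.38 and Irgm1 -0.50 to 0.21. They included Isg15 -0.90 to 0.61, Mx2 -0.58 to 1.19, Oas2 -1.70 to 0.41, Oas3 -2.55 to 0.14, Oasl2 -0.80 to 0.76, Parp14 -1.01 to 0.20 and Parp9 -0.63 to 0.27. They included Rsad2 -0.37 to 1.25, Rtp4 -0.75 to 0.25, Sp100 -0.17 to 0.81, Stat2 -0.99 to 0.32, Usp18 -0.78 to 0.42 and Xaf1 -0.72 to 0.10.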
